A study of Mus musculus with 4 samples.

Results

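The Ly49 receptor genes are a cluster of closely related genes for C-type lectin-like receptors on natural killer (NK) cells. The 9 described here were taken by their symbols in the deposited gene table, namely Klra1, Klra3, Klra4, Klra5, Klra6, Klra7, Klra8, Klra9 and Klra17, out of 31253 genes measured. Each of the 9 symbols matched 1 gene. Live CD45+ cells had been sorted from tumor-bearing hemispheres on day 14 after intracranial implantation of CT2a, a mouse glioma line, into C57Bl/6 mice. The 4 wildtype (WT) mice and the 4 CaMKK2-/- (CaMKK2 KO) mice, which lack calcium/calmodulin-dependent protein kinase kinase 2 in the whole animal, were young adult females per the study's methods. Hashtag antibodies marked each animal, and each genotype occupied 1 channel of a 10x Genomics 3′ assay, so that genotype and channel cannot be told apart.

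Ly49 receptors bind class I MHC molecules and related viral ligands. Most of them carry an immunoreceptor tyrosine-based inhibitory motif (ITIM) in the cytoplasmic tail, which recruits the phosphatase SHP-1 (Ptpn6) and restrains the NK cell, whereas the activating Ly49 receptors lack the motif and signal through the adaptor DAP12 (Tyrobp). Each NK cell switches on some of the genes and leaves others silent, and the resulting mixture of receptor combinations is acquired as NK cells mature. In C57Bl/6 mice the members encode Ly49A (Klra1), Ly49C (Klra3), Ly49D (Klra4), Ly49E (Klra5), Ly49F (Klra6), Ly49G (Klra7), Ly49H (Klra8), Ly49I (Klra9) and Ly49Q (Klra17). Ly49C and Ly49I bind H2-Kb, the class I molecule of the H2-K1 gene, Ly49H binds a protein of mouse cytomegalovirus, and Ly49Q is known from plasmacytoid dendritic cells (pDCs) and myeloid cells rather than NK cells.

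In the GENCODE M21 annotation of GRCm38 (mm10) the members lay on the minus strand of chromosome 6 within 555.7 kb, a span that also holds the protein-coding gene Klra10, not a member, between Klra7 and Klra3. Klra17 came first, from 129831154 to 129876672, and Klra5 (129898996 to 129917650), Klra6 (130013033 to 130026954), Klra4 (130043731 to 130067271) and Klra8 (130115226 to 130129898) followed. Klra9 (130178675 to 130193112), Klra7 (130218605 to 130233322), Klra3 (130323289 to 130337574) and Klra1 (130363917 to 130386874) completed the cluster. The first 45 bases of each coding sequence are shown because they hold the sequence that parts inhibitory from activating members. Capitals mark the 6 codons of the ITIM, which began at codon 6 in 7 members, and in Klra4 and Klra8 no such motif was found in the first 60 codons.
Klra17: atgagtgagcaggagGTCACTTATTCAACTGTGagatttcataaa
Klra5: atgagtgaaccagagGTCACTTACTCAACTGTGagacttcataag
Klra6: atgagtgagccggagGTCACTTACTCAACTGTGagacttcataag
Klra4: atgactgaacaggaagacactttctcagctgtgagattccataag
Klra8: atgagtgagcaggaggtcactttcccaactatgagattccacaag
Klra9: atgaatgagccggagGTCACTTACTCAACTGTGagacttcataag
Klra7: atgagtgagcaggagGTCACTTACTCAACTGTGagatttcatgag
Klra3: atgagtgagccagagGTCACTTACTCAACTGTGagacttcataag
Klra1: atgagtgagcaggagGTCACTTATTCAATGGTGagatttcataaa

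Identity between whole coding sequences ran from 76.8% (Klra3 and Klra4) to 95.9% (Klra3 and Klra9). Because the assay reads the 3′ end, the last 500 bases of each transcript were cut into windows of 91 bases and searched in the other annotated transcripts. Exact copies in another gene made up 13.7% of the windows of Klra9, 8.05% of those of Klra3 and 7.8% of those of Klra7, and 0% for the other 6 members. The partners of Klra9 were Klra10, Klra3 and the pseudogene Klra11-ps, and those of Klra3 were Klra10 and Klra9, so counts of these genes are the least certain in the set. Klra7 shared windows with the pseudogene Klra13-ps.

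After removal of hashtag doublets, unassigned barcodes, outlying cells and doublets scored by Scrublet, 10685 of 13960 barcodes remained, with 1006 to 1665 cells and 11886048 to 20346223 unique molecular identifiers (UMIs) per mouse. The median cell had 12597 UMIs in WT and 11457 in CaMKK2 KO mice, and the libraries shared 42 barcodes, 8 of them among the cells kept. Camkk2, the deleted gene, stood at 31.1 ± 5.31 CPM (SD, n = 4) in WT and 17.3 ± 4.15 in CaMKK2 KO mice, with the lowest WT mouse at 27.7 and the highest CaMKK2 KO mouse at 22.6. Which exons the knockout removes is not given in the sources used here, and UMIs are read at the 3′ end, so the remaining UMIs cannot be placed and the values are a weak check of the labels. Cells were sorted into 17 classes by UMIs of marker genes, none of them a member, and 1081 cells that met no gate or several stayed ungated. NK-gated cells held at least 2 UMIs of Ncr1, Klrb1c and Klre1 and few of T, B or macrophage markers. Ncr1, which encodes NKp46, was found in 87.2% of the 1388 NK-gated cells and in 1.24% of the 725 CD8 T-gated cells. CPM are the UMIs of a gene divided by all UMIs of the mouse, or of its cells in a class, and scaled to a common total. Each molecule was counted once at its 3′ end, so levels of different genes are compared per UMI and were not scaled by length.

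Of the 9 genes, 6 had most of their UMIs in NK-gated cells. NK-gated cells held 93.8% of the UMIs of Klra8, 90.5% for Klra4, 88.8% for Klra9, 83.4% for Klra7, 74.9% for Klra3 and 74.2% for Klra1. The share was smaller for Klra6, at 38.5% of 200 UMIs, and for Klra5, at 30.9% of 1023 UMIs. Klra17 was placed elsewhere, with 4 of 1785 UMIs in NK-gated cells and 1021 in macrophage-gated cells. These shares also depend on the number of cells in a class. By level, Klra1 was nearly equal in NK-gated cells (70.8 ± 20.5 CPM) and in T cells outside the CD8, CD4, regulatory and gamma-delta gates (66.4 ± 30.6, n = 8 mice each). Pooled levels of Klra3, Klra4, Klra7, Klra8 and Klra9 were highest in NK-gated cells, with Klra7 at 368 CPM there and 334 in gamma-delta T cells.

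Summed over the 9 genes, the level in NK-gated cells was 1371 ± 250 CPM (SD, n = 8 mice), with a lowest, median and highest mouse of 970, 1349 and 1722. T cells outside the CD8, CD4 and regulatory gates ("other T", T cells with too few or mixed coreceptor transcripts for any of these gates, in which Cd8b1 was found in 26.7%, Cd4 in 22% and Foxp3 in 9.89% of cells) came to 623 ± 137 CPM, ranging from 429 to 821. The 75 gamma-delta T cells gave 862 CPM when pooled, with a 95% Poisson interval of 787 to 943 that covers counting error only. Among the 4 mice with at least 10 such cells the sum ranged from 248 to 1193 CPM, so the order of gamma-delta T and other T cells does not hold beyond the spread. CD8 T-gated cells stood at 105 ± 48.5 CPM, from 22 to 179, below every mouse's NK-gated and other T cells.

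The remaining classes were low. Conventional CD4 T cells had 15.2 ± 17.2 CPM (n = 7 mice with at least 10 cells), regulatory T cells 8.69 ± 7.66 (n = 7) and B cells 8.95 ± 6.77 (n = 8). Macrophages had 24.8 ± 10.9 (n = 8) and type 2 dendritic cells 19.8 ± 11.9 (n = 7), in both cases mostly Klra17, while the 31 pDCs had 139 CPM when pooled. Microglia, classical and non-classical monocytes, mature dendritic cells and type 1 dendritic cells lay between 5.94 and 8.25 CPM on average, and these neighbours overlapped with B cells and regulatory T cells. The 33 neutrophils and 16 mast cells or basophils were too few to read.

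**Figure D1:**
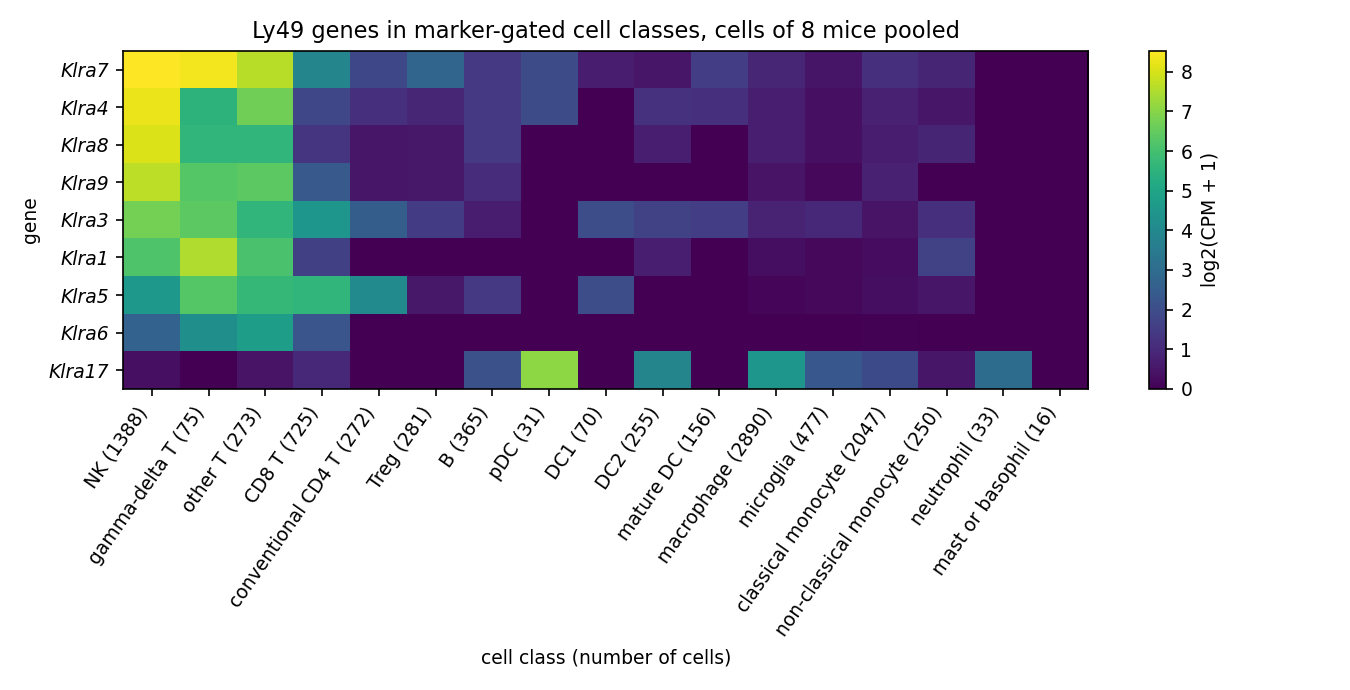
Level of each of the 9 genes, as log2(CPM + 1), in the 17 marker-gated classes, with the UMIs of the 8 mice pooled and the number of cells given on the horizontal axis. Brighter (yellow) fields are higher and darker fields lower. Klra3, Klra4, Klra7, Klra8 and Klra9 are highest in NK cells, Klra1 in the few gamma-delta T cells (183 CPM against 72.1 in NK cells). Klra5 is spread over NK, CD8 T, gamma-delta T and other T cells, and Klra17 is seen in pDCs, macrophages and type 2 dendritic cells.

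Shares of cells with a UMI depend on depth, so each cell was thinned at random to 3000 UMIs, which left out 44 NK-gated cells. At that depth 82.7% of the 1344 NK-gated cells held at least 1 member UMI, from 78.2% to 87% by mouse, against 87.2% without thinning. CD8 T-gated cells came to 13% (21.1% without thinning), other T cells to 39.5% (43.6%) and gamma-delta T cells to 32.9% (38.7%). B cells, which should lack the receptors, had 3.03% (5.48%), and the median B cell held 4178 UMIs against 7048 in NK-gated and 11378 in CD8 T-gated cells. Regulatory T cells at 3.49% and conventional CD4 T cells at 3.92% were near the B-cell share. Without thinning, member UMIs came to 21 in 20 B cells, 22 in 16 regulatory T cells and 59 in 17 conventional CD4 T cells. The part of free RNA in these shares was not tested.

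In the same mice, the summed level was higher in NK-gated than in CD8 T-gated cells in 8 of 8 mice, by 3.87 on the log2(CPM + 1) scale (SD 0.95, two-sided exact sign-flip permutation test, p = 0.00781, the smallest that 8 mice allow). Of the single genes 6 differed in 8 of 8 mice, at an adjusted p of 0.0117 each in the exact test over the 9 genes. Klra4 differed by 7.21 and Klra8 by 7.12, and they were followed by Klra9 at 5.95, Klra7 at 4.98, Klra1 at 4.73 and Klra3 at 2.70. Klra4, Klra8 and Klra1 were near the floor in CD8 T-gated cells, with 24, 14 and 19 UMIs in 725 cells. The size of their differences therefore follows their level in NK-gated cells, and this order does not set the activating pair apart. Klra5 went the other way in 6 of 8 mice, at 19.7 ± 12.8 CPM in NK-gated and 42.6 ± 37.1 in CD8 T-gated cells, a difference of -1.06 that did not pass the exact test (adjusted p = 0.271). Klra6 was at 5.67 ± 2.1 and 6.7 ± 8.56 CPM (exact adjusted p = 0.483).

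Within NK-gated cells the 9 genes covered a wide range. Klra7 was at 355 ± 88.3 CPM (SD, n = 8), Klra4 at 323 ± 80.3 and Klra8 at 279 ± 74.2, followed by Klra9 at 211 ± 82.4, Klra3 at 105 ± 31 and Klra1 at 70.8 ± 20.5. Klra5 at 19.7 ± 12.8, Klra6 at 5.67 ± 2.1 and Klra17 at 0.285 ± 0.47 closed the order. Neighbours in this order were compared by exact sign-flip tests over the 8 mice, adjusted over 8 pairs. The order was set by the means of the same mice, so the p-values describe the steps and are no separate test of the order. Klra7 and Klra4 did not differ beyond their spread (adjusted p = 0.492), nor did Klra4 and Klra8 (0.0521) or Klra3 and Klra1 (0.107 by permutation), while the other 5 steps gave exact adjusted p-values of 0.0312 to 0.0375.

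The order by share of cells was that by level except for Klra4. By share it came after Klra8 and Klra9, within their spread. Klra7 was detected in 40.5% ± 4.32 of thinned NK-gated cells (SD, n = 8 mice), Klra8 in 36% ± 7.18, Klra9 in 34% ± 6.26 and Klra4 in 32.9% ± 5.2. Klra3 followed with 18.8% ± 3.33 and Klra1 with 9.97% ± 3.12, while Klra5 was found in 2.71% ± 1.83 and Klra6 in 1.7% ± 1.12. Without thinning, a WT NK-gated cell with Klra4 held 7.94 ± 0.982 of its UMIs (n = 4) and a cell with Klra1 held 5.56 ± 0.926, against 4.12 ± 0.842 for Klra9 and 1.85 ± 0.3 for Klra6.

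Single NK cells expressed the genes in combinations. In thinned cells 17.5% ± 3.35 (SD, n = 8 mice) had none of the 9 genes, 26.1% ± 4.68 had 1, 27.9% ± 3.45 had 2 and 20.5% ± 4.73 had 3. Another 6.97% ± 1.16 had 4 and 1% ± 0.584 had 5, and 2 cells had 6 or more. Without thinning the most genes in a cell was 7. The numbers are lower limits for expression, since a gene with few molecules can be missed. Among all NK-gated cells with a member 20.4% had exactly 1 without thinning, and the mean was 2.54 genes. In CD8 T-gated cells with a member, 81% had exactly 1 and the mean was 1.27, while other T cells (22.7% with 1, mean 2.38) and gamma-delta T cells (24.1%, mean 2.28) were closer to NK-gated cells.

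For the 6 genes found most often in NK-gated cells, the share of cells with both genes was divided by the product of the separate shares, per mouse, which is 1 when detection of one gene says nothing of the other. The median over the 15 pairs was 1.1, and 4 pairs lay above 1 in 8 of 8 mice. Klra1 with Klra4 had the highest ratio, 1.67 ± 0.517 (range 1.1 to 2.6). The activating genes Klra4 and Klra8 were found together in 16.7% ± 4.45 of cells, a ratio of 1.42 ± 0.184 (range 1.15 to 1.74), Klra4 with Klra7 had 1.3 ± 0.15 and Klra8 with Klra9 1.22 ± 0.147.

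One pair lay below 1 in every mouse. Klra1 and Klra3, Ly49A and Ly49C, were found together in 0.94% ± 0.734 of cells where the product of their shares was 1.83%, a ratio of 0.513 ± 0.397 that ranged from 0 to 0.961. This was the lowest of the 15 ratios. Klra1 was found in 7 to 34 NK-gated cells per mouse without thinning, so the ratios with Klra1 rest on few cells. Klra3 with Klra7 had 0.796 ± 0.264, below 1 in 7 of 8 mice. The near neighbours in sequence, Klra3 and Klra9, had a ratio of 1.06 ± 0.19. Cells of different depth within a class were thinned to the same number of UMIs, and no test was made because cells are not replicates. The ratios also pool NK-gated cells of clusters 3 and 19 of a clustering made without the members. Klra4 (455 and 178 CPM), Klra8 (379 and 180) and Klra9 (326 and 108) were all lower in cluster 19. The part of this in the ratios was not tested.

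**Figure D2:**
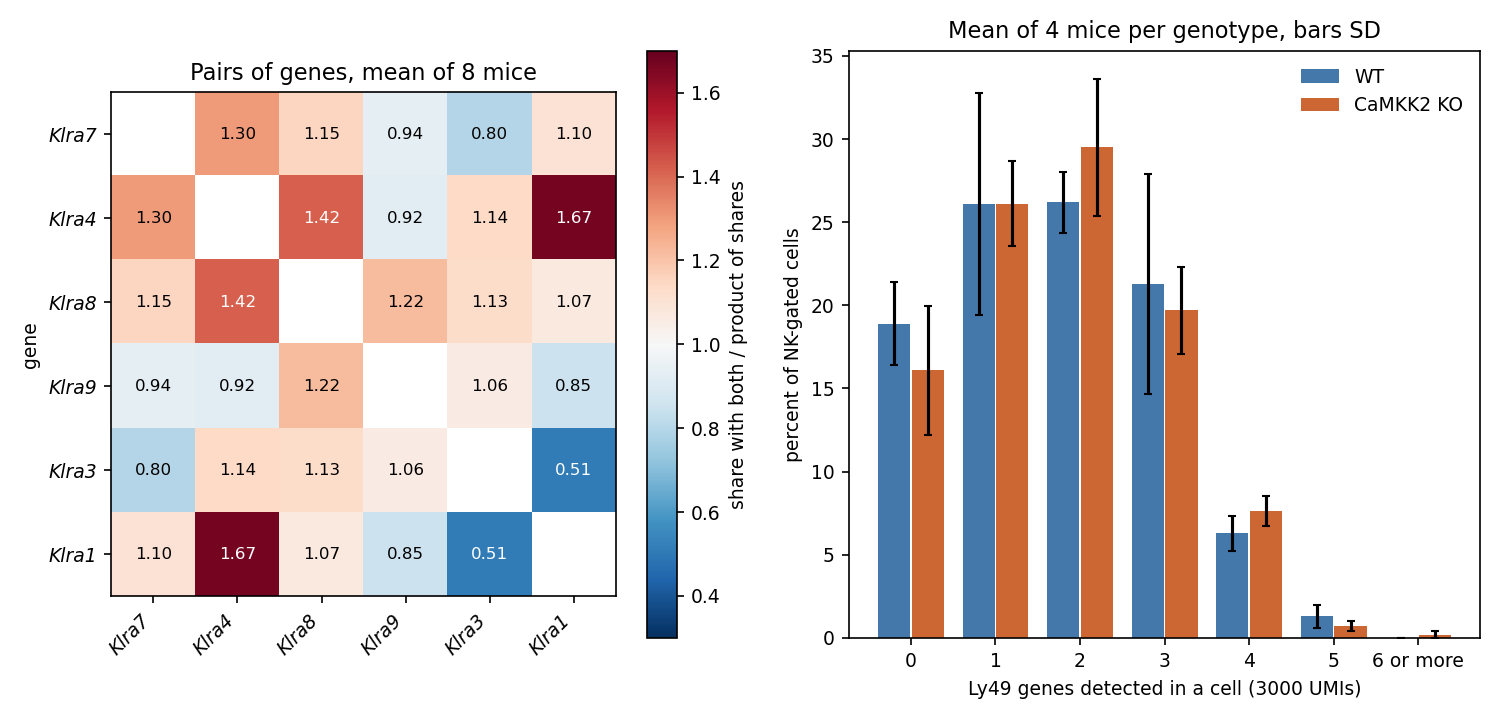
Left, the share of NK-gated cells with both genes of a pair divided by the product of the separate shares, as the mean of 8 mice at 3000 UMIs per cell, where 1 is no association. Right, percent of NK-gated cells with 0 to 6 or more of the 9 genes, as mean and SD of 4 mice per genotype. Klra1 with Klra4 reaches 1.67 and Klra1 with Klra3 falls to 0.513, and most cells have 1, 2 or 3 genes in both genotypes. Ratios with Klra1 rest on few cells.

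T cells differed from NK cells in which members they used. The activating genes Klra4 and Klra8 made up 43.8% ± 5.79 of the members' UMIs in NK-gated cells (range over 8 mice 36.9% to 53.9%). In CD8 T-gated cells they made up 4.3% ± 6.88, on 17 to 237 UMIs per mouse, lower in 8 of 8 mice by 39.5 percentage points on average (exact sign-flip permutation test, p = 0.00781). Other T cells lay between, at 21.9% ± 12.2, lower than NK-gated cells in 8 of 8 mice (exact permutation p = 0.00781). This comparison was chosen after the levels had been seen.

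Other T cells were a mixture. In a clustering made without the members, 49 of the 273 fell into clusters of NK-gated cells and had 1237 CPM of the 9 genes, 37% of it activating. The other 224 had 361 CPM, 5.96% of it activating, with Klra7 at 146, Klra1 at 63.5, Klra5 at 42, Klra9 at 36.3 and Klra6 at 31.2 CPM. Of the gamma-delta T cells 69 lay outside NK clusters, with Klra7 at 306 and Klra1 at 210 CPM and Klra4 and Klra8 at 0, in too few cells to read as absence. These pooled values have no replicate error.

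Klra6 (Ly49F) had its highest class mean in other T cells, at 24.9 ± 15.6 CPM (n = 8, range 9.96 to 51.3) against 5.67 ± 2.1 in NK-gated cells. In CD8 T-gated cells it was found in 13 of 725 cells.

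To ask which genes follow the members over the 17 classes, Pearson correlations of log2(CPM + 1) were ranked over genes with at least 100 UMIs, as a description, since the classes come from the same libraries and differ in depth. The sum of the members was most like Klrb1f (r = 0.917), Eomes (0.915), a transcription factor of NK cells, and the granzyme gene Gzmd (0.912). Klra8 was most like Hemgn and Klra9 (0.983 each), Klra4 like Klra8 (0.970), Klra7 like Klra9 (0.971), and Klra1 like Klra9 (0.955). Klra3 followed Klrb1c (0.970), which served in the NK gate. The genes nearest to Klra5 were Cd160 (0.971), Crtam (0.960) and Klrc2 (0.944), receptors shared by NK cells and activated CD8 T cells. Klra6 was most like Trgc4 (0.950), a T-cell receptor gamma constant gene. Klra17 had weaker likenesses, the highest to Gm2814 (0.863), Arhgap24 (0.843) and Cdh5 (0.821).

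In the comparison of genotypes within NK-gated cells (572 WT and 816 CaMKK2 KO cells, 96 to 280 per mouse), Ly49A transcripts were called lower and Ly49C transcripts higher in CaMKK2 KO mice. Neither call held in every fit with 1 mouse left out, and the total was not shown to differ. Of 9432 genes tested with edgeR's quasi-likelihood test on UMIs summed per mouse, 241 were called at an adjusted p under 0.05, which is 2.56% (147 higher and 94 lower in CaMKK2 KO mice, or 107 and 103 with TMM scaling). Of the members 8 could be tested, of which 1 was called higher and 1 lower, and their median log2 fold change was 0.42 against 0.06 over all genes tested. Klra17 had 4 UMIs and was not tested. The p-values measure the spread between the mice of these 2 pools.

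Klra1 was at 77.4, 87.1, 74.4 and 109 CPM in WT mice 1 to 4 and at 50.9, 51.8, 65.8 and 50.4 CPM in CaMKK2 KO mice 1 to 4. The genotypes did not overlap, which also held for 9.75% of all genes tested. The log2 fold change was -0.65 (SE 0.15, edgeR adjusted p = 0.0276). The share of thinned cells with Klra1 was 12.4% ± 1.75 in WT and 7.56% ± 2.02 in CaMKK2 KO mice (n = 4 each, exact permutation p = 0.0286, the smallest that 4 mice against 4 allow, and 0.171 adjusted over 9 genes), and a positive cell held 5.56 ± 0.926 and 5.33 ± 0.898 UMIs.

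Klra3 stood at 112, 65.8, 73.7 and 69.4 CPM in WT mice and at 128, 116, 136 and 141 CPM in CaMKK2 KO mice. Again the genotypes did not overlap, although WT mouse 1 was close to the lowest CaMKK2 KO mouse. The log2 fold change was 0.70 (SE 0.15, edgeR adjusted p = 0.0251). The share of thinned cells with Klra3 did not pass the test, at 17.9% ± 4.52 in WT and 19.8% ± 1.74 in CaMKK2 KO mice (n = 4 each, exact permutation p = 0.486). Both calls were sensitive to single mice: with 1 mouse left out, Klra1 passed in 3 of 8 fits (edgeR adjusted p from 0.00493 to 0.112) and Klra3 in 3 of 8 (0.000777 to 0.101), with the direction kept in all 16. With outlying cells and doublets kept, Klra1 came to -0.33 (edgeR adjusted p = 0.234).

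Klra7 (Ly49G) gave 236, 346, 324 and 265 CPM in WT and 449, 497, 397 and 329 CPM in CaMKK2 KO mice. Just 1 CaMKK2 KO mouse lay within the WT range, and the log2 fold change of 0.52 (SE 0.14) did not pass (edgeR adjusted p = 0.0738), although it did under 4 alternatives and in 2 of 8 fits with a mouse left out. Klra9, the other receptor for H2-Kb, was at 99.4, 138, 205 and 192 CPM in WT and 226, 339, 173 and 317 CPM in CaMKK2 KO mice. With 1 CaMKK2 KO mouse inside the WT range, the log2 fold change was 0.71 (SE 0.22, edgeR adjusted p = 0.116). The activating genes did not pass either. Klra4 had 264, 274, 424 and 317 CPM in WT and 247, 349, 254 and 456 in CaMKK2 KO mice (0.01, SE 0.19, edgeR adjusted p = 0.993), and it turned to -0.07 with TMM scaling. Its share of thinned cells was 36% ± 3.98 in WT and 29.7% ± 4.59 in CaMKK2 KO mice (n = 4 each, exact permutation p = 0.0571, and 0.171 adjusted over 9 genes). Klra8 had 150, 273, 388 and 235 CPM in WT and 264, 322, 251 and 351 in CaMKK2 KO mice (0.17, SE 0.21, edgeR adjusted p = 0.761). Klra5 had a log2 fold change of 0.38 (SE 0.46) and Klra6 of 0.46 (SE 0.39), with edgeR adjusted p-values of 0.765 and 0.615.

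**Figure D3:**
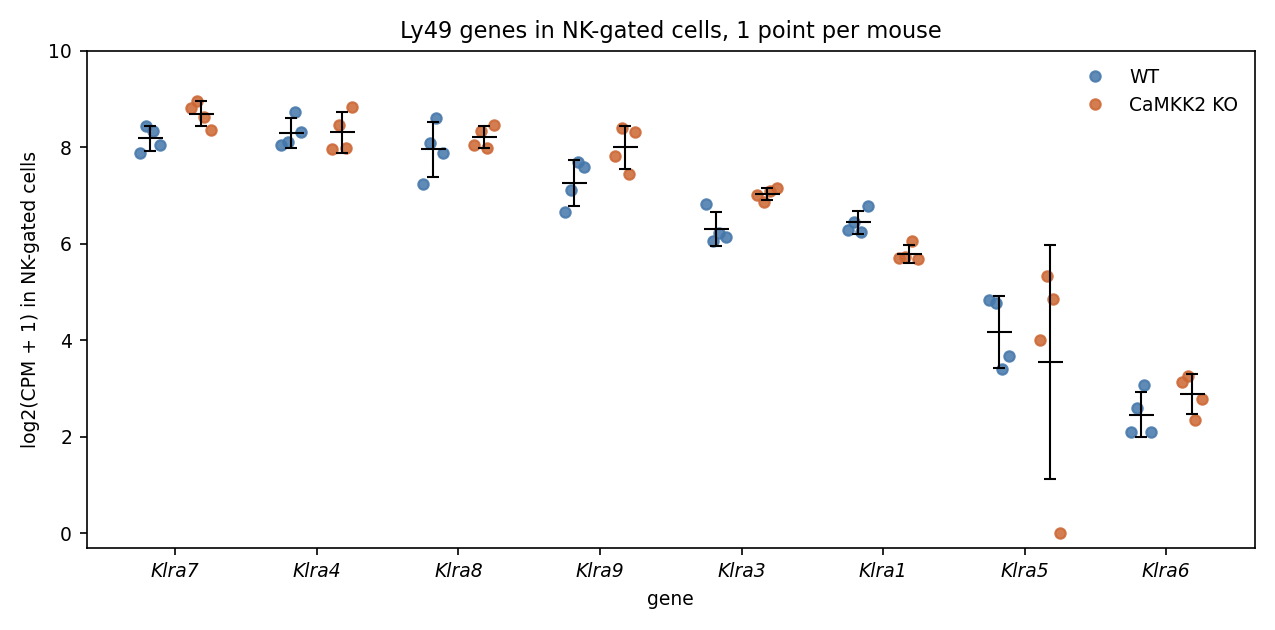
Level of 8 of the 9 genes in NK-gated cells as log2(CPM + 1), with 1 point per mouse, for 4 WT and 4 CaMKK2 KO mice. The genotypes are apart for Klra1 (WT 74.4 to 109 CPM, CaMKK2 KO 50.4 to 65.8) and Klra3 (WT 65.8 to 112, CaMKK2 KO 116 to 141) and overlap for the others.

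The summed level was 970, 1216, 1507 and 1203 CPM in WT and 1388, 1722, 1310 and 1650 in CaMKK2 KO mice. These overlapped and differed by 293 CPM (exact permutation p = 0.143). The share of thinned NK-gated cells with a member was 81.1% ± 2.49 in WT and 83.9% ± 3.88 in CaMKK2 KO mice (exact permutation p = 0.314), and the mean number of genes per cell 1.74 ± 0.17 and 1.79 ± 0.11 (p = 0.657, n = 4 each, exact permutation test). Activating genes gave 46.9% ± 4.9 of the members' UMIs in WT and 40.8% ± 5.47 in CaMKK2 KO mice (exact permutation p = 0.143). Adjusted over these 4 results the exact p-values were 0.286 to 0.657.

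Other markers moved with the genotype in the same NK-gated cells. The summed level of 7 macrophage markers was 136 to 186 CPM in WT and 88.1 to 121 in CaMKK2 KO mice, that of 4 T-cell markers 18.7 to 30.9 and 34.2 to 48.9, and that of the 3 NK markers 1101 to 1715 and 1510 to 2201. Their part in the results was not tested. The defining macrophage markers were not at 0 in either genotype.

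Of the 59 genes on a list of Ly49 partners and NK genes, 55 were tested in NK-gated cells, and 6 rose and none fell. Among receptors of the NK gene complex 1 of 10 passed: Klrg1, an inhibitory receptor of mature NK cells, rose from 26.9 ± 5.78 to 71.2 ± 23.7 CPM (log2 1.42, edgeR adjusted p = 0.00406). Of the 18 maturation and ILC1 genes 5 rose, namely Gzma (log2 1.43) and Gzmb (1.47), granzymes of cytotoxic granules, Prf1 (0.96), which encodes perforin, Spn (0.85), which encodes CD43, and Itgam (1.62), which encodes CD11b. Gzmc, another granzyme gene on the list, went the other way without passing. It stood at 5893 ± 344 CPM in WT and 3733 ± 1636 in CaMKK2 KO mice (log2 -0.66, edgeR adjusted p = 0.206). With a robust prior on the spread of each gene, Gzma, Gzmb and Itgam no longer passed (edgeR adjusted p = 0.06, 0.147 and 0.258). Itgam was also lost with TMM scaling (edgeR adjusted p = 0.0552), at a minimum of 200 UMIs (0.0633) and with DESeq2 (adjusted p = 0.0827). It passed in 1 of 8 edgeR fits with a mouse left out.

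None of 12 adaptor and signalling genes, 12 transcription factors or 3 class I genes passed by edgeR. The class I genes H2-D1 (0.34, edgeR adjusted p = 0.067, or 0.0331 with DESeq2) and B2m (0.34, edgeR adjusted p = 0.0775) did not overlap between genotypes. The same held for Klrb1a, Zap70, Fyn, Sh2d1a, Id2, Tox and Gzmc, and for 9.75% of all genes tested. Tyrobp, the adaptor of the activating members, differed by 0.22 (edgeR adjusted p = 0.289), Ptpn6 by -0.09 (0.856), H2-K1 by 0.34 (0.173) and Klra2, which encodes Ly49B and lies 832.3 kb beyond Klra1, by 0.82 (0.384).

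In CD8 T-gated cells, Klra5 (Ly49E) was higher in CaMKK2 KO mice. Of 8727 genes tested there, edgeR called 151, or 1.73% (86 higher and 65 lower, or 61 and 85 with TMM scaling), among them 1 of the 3 members with enough UMIs. Klra5 was at 6.47, 17.4, 11 and 20.4 CPM in WT and at 112, 59.3, 76.2 and 38.3 CPM in CaMKK2 KO mice. The genotypes did not overlap, which held for 9.67% of all genes tested. The mean was 13.8 ± 6.26 against 71.4 ± 31.1 CPM, a log2 fold change of 2.29 (SE 0.28, edgeR adjusted p = 9.03e-05, exact permutation p = 0.0286). It passed in 8 of 8 fits with a mouse left out, at 1.98 to 2.49.

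The transcripts came from few cells. WT mice had 1, 25, 18 and 32 Klra5 UMIs in 1, 6, 4 and 3 cells, of 17, 111, 145 and 119 CD8 T-gated cells. CaMKK2 KO mice had 174, 42, 144 and 16 UMIs in 18, 3, 18 and 2 cells, of 125, 44, 128 and 36. In each mouse the 3 highest cells held 32.8% to 100% of the UMIs. Without these cells the level was 1.42 ± 2.44 CPM in WT and 30.9 ± 37.8 in CaMKK2 KO mice (n = 4 each). The exact permutation test then gave p = 0.429, with the genotypes overlapping. Mice with at most 3 positive cells, which were WT mice 1 and 4 and CaMKK2 KO mice 2 and 4, had no Klra5 UMI left. Overlap was therefore fixed in advance, and this test cannot decide whether the genotypes differ outside the highest cells. The share of thinned cells with Klra5 was 1.61% ± 1.11 in WT and 6.63% ± 4.82 in CaMKK2 KO mice (n = 4 each, exact permutation p = 0.0571), and the UMIs per positive cell without thinning 5.08 ± 4.04 and 9.92 ± 2.83 (p = 0.114, exact permutation test). Neither component alone passed the test that the level passed.

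**Figure D4:**
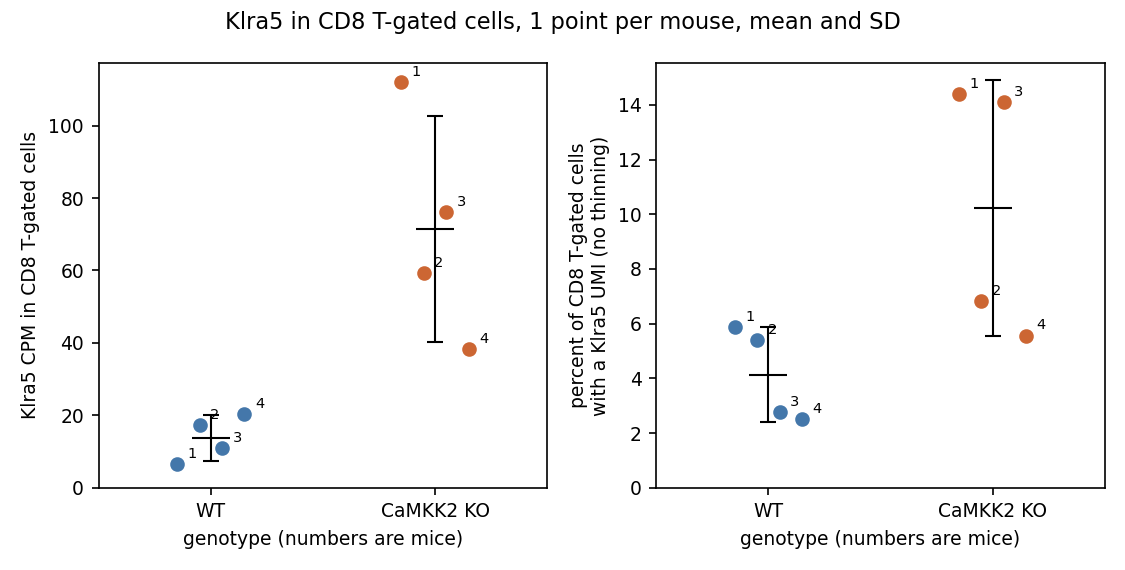
Klra5 in CD8 T-gated cells, with 1 point per mouse and mean and SD of 4 mice per genotype. The level in CPM does not overlap (WT 6.47 to 20.4, CaMKK2 KO 38.3 to 112), whereas the percent of cells with a Klra5 UMI without thinning overlaps (WT 2.52 to 5.88, CaMKK2 KO 5.56 to 14.4).

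Of the 55 Klra5-positive CD8 T cells, 13 (23.6%) held another member, against 98 of the other 670 (14.6%) with any member, at a median of 13604 and 11110 UMIs per cell and without a test. Klra3 was the partner in 9 of the 13 and was found in 16.4% of Klra5-positive and 7.76% of the other CD8 T-gated cells. Klra3 itself had 12.9, 43.2, 7.35 and 6.37 CPM in WT and 12.2, 2.83, 39.7 and 45.5 in CaMKK2 KO mice (log2 0.43, SE 0.57, edgeR adjusted p = 0.808). Klra7 had 58.2, 1.39, 0 and 28.7 CPM in WT and 12.8, 53.7, 4.24 and 12 in CaMKK2 KO mice (0.50, SE 0.84, edgeR adjusted p = 0.858). The other 6 members had 9 to 40 UMIs in CD8 T-gated cells and were not tested.

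Klra5 in NK-gated cells of the same mice was at 27.7, 26.3, 9.58 and 11.8 CPM in WT and 15, 39.3, 28.1 and 0 in CaMKK2 KO mice, with the groups overlapping. The log2 difference between CD8 T-gated and NK-gated cells within a mouse was -0.40 ± 1.16 in WT and 2.53 ± 2.06 in CaMKK2 KO mice. That is 2.92 apart (exact permutation p = 0.0571, 0.171 adjusted over 3 genes), so that a difference in response between the classes was not shown. In other T cells Klra5 stood at 22.8, 58.2, 0 and 4.67 CPM in WT and 119, 82.9, 58.3 and 64 in CaMKK2 KO mice. These did not overlap, which held for 7.65% of the 6075 genes with at least 50 UMIs there, although WT mouse 2 was nearly level with CaMKK2 KO mouse 3, and no test was made. In conventional CD4 T cells 37 UMIs lay in 5 cells of 2 CaMKK2 KO mice.

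On the same list of 59 genes, 47 were tested in CD8 T-gated cells and 2 rose, with none falling. These were Gzma (log2 3.77, edgeR adjusted p = 0.0271) and Gzmb (1.98, 0.00199), and neither passed with a robust prior on the spread (edgeR adjusted p = 0.303 and 0.136), where Klra5 did (0.00127). Both granzymes overlapped between genotypes. Gzma was at 90.6, 158, 40.4 and 82.1 CPM in WT and 207, 3030, 40.2 and 1869 CPM in CaMKK2 KO mice. With a mouse left out, Gzma passed in 3 of 8 edgeR fits and Gzmb in 8 of 8. Tyrobp differed by -0.23 (0.708), Ptpn6 by 0.16, H2-D1 by 0.41 (edgeR adjusted p = 0.125) and H2-K1 by 0.28 (0.381). Macrophage markers moved with the genotype here too, at 148 to 176 CPM in WT and 91.8 to 122 in CaMKK2 KO mice, and NK markers were at 201 to 293 and 229 to 426 CPM. Their part was not tested.

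Klra17 (Ly49Q) was the myeloid member. The 31 pDCs had 45 UMIs in 18 cells, 134 CPM with a 95% Poisson interval of 97.4 to 179, type 2 dendritic cells 14.5 ± 10.8 CPM (n = 7 mice) and macrophages 20.9 ± 11.1 (n = 8, range 5.42 to 32.7). Microglia had 5.2 ± 5.32 and classical monocytes 3.12 ± 2.18 CPM (n = 8 each), and no UMI was seen in type 1 or mature dendritic cells, where 3 counts would be 1.83 and 1.94 CPM. Macrophage-gated cells were higher than NK-gated cells in 8 of 8 mice, by 3.92 on the log2(CPM + 1) scale (SD 0.86, exact sign-flip permutation p = 0.00781). After thinning, 5.41% of macrophages had a Klra17 UMI against 1.21% of B cells.

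Among macrophages Klra17 was unevenly placed. In the clusters made without the members, the 768 macrophages of cluster 0, led by Clec4b1, Vcam1 and Col14a1 over other macrophages, had 48.5 CPM and 34.1% positive cells, and the 83 of cluster 7, led by the cell-cycle genes Birc5 and Mki67, had 53.2 CPM. Cluster 2, led by Ifi213 and Chil3 and with 714 of its 733 cells from WT mice, had 4.41 CPM. Cluster 16, led by Ccl5, Ly6i and Ifi44l and with 27 of its 913 cells from WT mice, had 8.91 CPM. Of the 537 Klra17 UMIs in ungated cells, 347 were in cluster 0 and 86 in the cluster of pDCs, at 158 CPM.

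In macrophages Klra17 was at 5.85, 29.2, 29.3 and 26.5 CPM in WT mice and at 32.7, 5.42, 25.5 and 13 in CaMKK2 KO mice. The genotypes overlapped, and the log2 fold change of -0.19 (SE 0.55) did not pass (edgeR adjusted p = 0.872), where edgeR called 315 of 11100 genes, or 2.84% (121 higher and 194 lower, or 163 and 138 with TMM scaling and 434 and 279 with DESeq2). WT mouse 1 was low also inside cluster 0, at 7.76 CPM against 43.3 to 67.3 in the other WT mice. CaMKK2 KO mice 2 and 4 had few cells there, 1.59% and 2.4% of their macrophages against 22% to 42.3% in the other 6 mice.

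The other members were low in macrophages, at most 43 UMIs each in 2890 cells. Klra7 was at 0 to 0.664 CPM in WT and 1.08 to 1.94 in CaMKK2 KO macrophages and Klra3 at 0.797 to 1.25 and 0.194 to 0.701, without overlap, as were 13.8% of genes tested, but both were below the minimum of 50 UMIs for testing. Klra2 (Ly49B), no member of the set, was abundant, with 73.5, 223, 189 and 166 CPM in WT and 301, 372, 281 and 473 in CaMKK2 KO macrophages (log2 1.13, edgeR adjusted p = 0.0765, DESeq2 adjusted p = 0.00464), without overlap.

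Of the 59 listed genes 40 were tested in macrophages, and Gzma (from a mean of 4.93 to 19.9 CPM, log2 2.01) and Gzmb (from 6.39 to 16.5 CPM, 1.35) rose by edgeR, far below their levels in NK-gated cells, with T-cell markers at 7.71 to 8.79 CPM in WT and 13.3 to 15.8 in CaMKK2 KO macrophages. Of the ligand genes, H2-D1 (0.51, adjusted p = 0.128) and H2-K1 (0.71, 0.129) did not overlap between genotypes and did not pass by edgeR, but did with DESeq2 (adjusted p = 0.0408 and 0.0393). Tyrobp differed by -0.01 and changed sign with TMM scaling to 0.08.

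NK-gated cells with and without a detected member were compared within each mouse, at 3000 UMIs per cell. There were 1111 positive cells, 80 to 228 per mouse, and 233 negative cells, 12 to 40 per mouse, whose median before thinning was 6953 and 9405 UMIs. Without thinning, 90% of the NK-gated cells of cluster 3 and 80.9% of those of cluster 19 held a member. The part of these clusters in the differences was not tested. Positive cells had more transcripts of the cytotoxic granule genes Gzma and Prf1 and of maturation genes, and negative cells had more Il7r, Tmem176a, Tmem176b, Rora and Klrc1. Of 7064 genes other than the members, edgeR with the mouse as a block called 87, or 1.23% (32 higher and 55 lower in positive cells, or 42 and 43 with TMM scaling), and 65 of them had the same sign in at least 7 of 8 mice (31 higher and 34 lower). The fit gave every gene the same prior spread, so that very small p-values of abundant genes rest on it, and exact sign flips over the 8 mice and a fit with a robust prior on the spread (72 calls) are given beside them.

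The genes named next were taken from the 65 calls with the same sign in at least 7 of 8 mice. Of the 8 of these highest in positive cells, Itgam went from 42.6 ± 29.2 CPM in negative to 93.6 ± 66.1 in positive cells (SD, n = 8 mice, log2 1.21, higher in 8 of 8). Gzma, granzyme A, was at 5269 ± 3819 and 9613 ± 4515 CPM (1.03, 8 of 8), and Zeb2, a transcription factor of terminal NK maturation, at 102 ± 76.9 and 193 ± 103 (1.01, 8 of 8). Serpinb9b, of a family of granzyme inhibitors, rose by 1.35 in 8 of 8 mice. These 4 genes gave the smallest exact sign-flip p of 0.00781, and robust edgeR adjusted p-values of 0.00101, 0.0339, 1.59e-05 and 0.00507. Phactr3 (2.81), Khdc1a (1.36), Cma1 (1.32) and Api5 (1.18) were higher in 7 mice each, with exact sign-flip p-values of 0.0156 to 0.0234. The filter on sign used the same mice, so the counts of mice and the sign-flip p-values of these 8 genes are no separate support. With DESeq2 the calls of Itgam, Serpinb9b, Phactr3, Khdc1a, Cma1 and Api5 were lost (adjusted p = 0.382, 0.162, 0.23, 0.124, 0.304 and 0.544). Api5 also came to 0.27 at 5000 UMIs per cell (edgeR adjusted p = 0.935) and passed in 2 of 8 fits with a mouse left out.

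Of the 8 genes lowest in positive cells under the same filter on sign, Il7r, the interleukin-7 receptor found on innate lymphoid cells and immature NK cells, was at 135 ± 93 CPM in negative and 15.1 ± 9.37 in positive cells (log2 -3.16, lower in 8 of 8 mice). Tmem176b was at 175 ± 109 and 8.51 ± 4.11 CPM (-4.15, 7 of 8) and Tmem176a at 90.1 ± 47 and 6.6 ± 5.3 (-3.56, 8 of 8). Rora, a transcription factor of innate lymphoid cells, fell by 2.48, Cd226, which encodes the activating receptor DNAM-1, by 1.72, the T-cell receptor gamma gene Trgc4 by 3.37, Sema6d by 1.78 and Socs2 by 1.68 on the log2 scale, each lower in 8 of 8 mice. The robust edgeR adjusted p-values of these 8 genes ran from 3.71e-46 to 0.00124, and the exact sign-flip p was 0.00781 for 7 of them and 0.0156 for Tmem176b. Here too the counts of mice and the sign-flip p-values are largely set by the filter and are no separate support. Their counts were small, from 82 UMIs (Sema6d) to 221 (Cd226). At 5000 UMIs per cell Socs2 came to -1.16 and lost its call (edgeR adjusted p = 0.0967). Without thinning, Il7r was found in 9.51% and Tmem176b in 11% of all NK-gated cells. When pooled, these 2 genes were at 900 and 379 CPM in gamma-delta T cells and at 483 and 718 in mature dendritic cells.

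**Figure D5:**
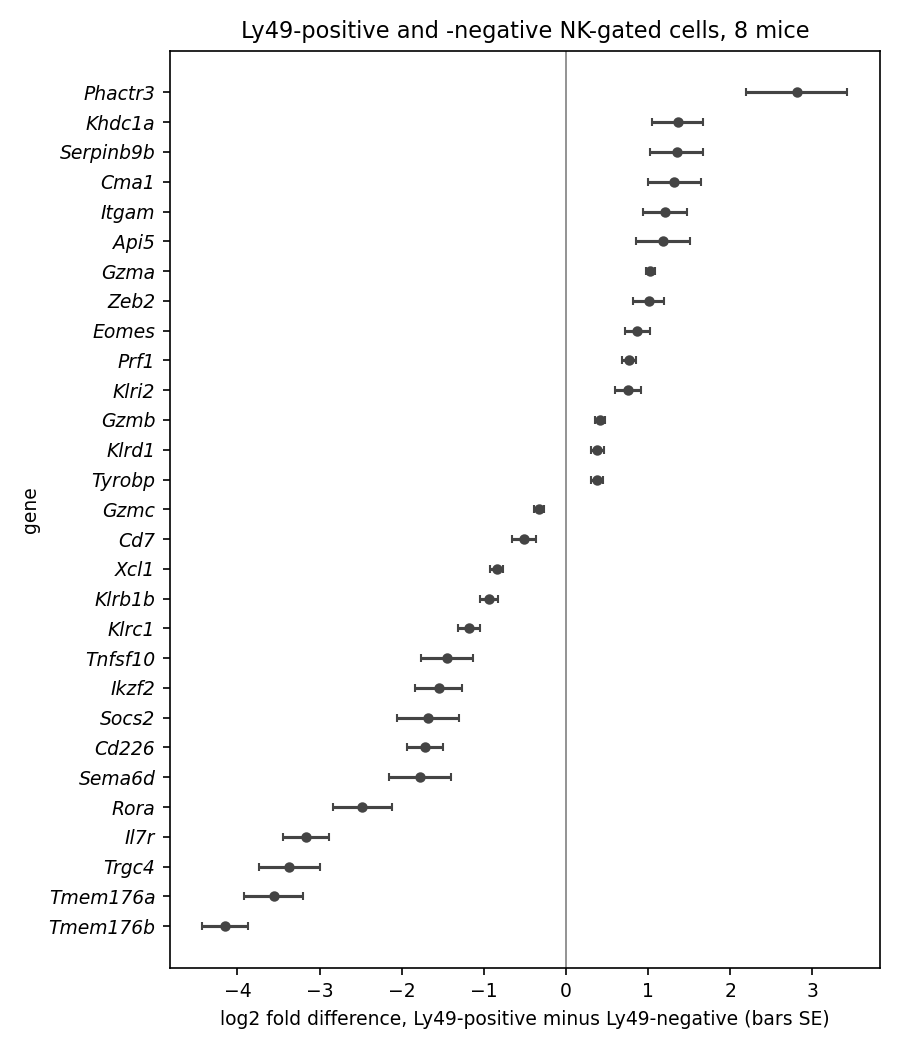
Log2 fold difference of the 16 named genes between Ly49-positive and Ly49-negative NK-gated cells from edgeR with the mouse as a block, with bars for the SE. Values run from 2.81 (Phactr3) to -4.15 (Tmem176b), with Il7r at -3.16 and Gzma at 1.03.

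From the list of 59 genes, 53 were tested, and 9 were higher and 8 lower in positive cells. Among the other receptors of the complex Klrc1, which encodes the inhibitory receptor NKG2A, was lower (log2 -1.18, 8 of 8 mice), while Klrd1, which encodes its partner chain CD94, was higher by 0.38 (8 of 8). At 5000 UMIs per cell Klrd1 came to 0.27 and lost its call (edgeR adjusted p = 0.0865). Klrb1b was lower (-0.94, 8 of 8) and Klri2 higher (0.76, 7 of 8), though not with DESeq2 (adjusted p = 0.28). Tyrobp was higher by 0.38 in 8 of 8 mice (exact sign-flip p = 0.00781), the only call among 12 adaptor and signalling genes by edgeR. Ptpn6 differed by -0.36 (robust edgeR adjusted p = 0.55), H2-D1 by -0.01 and H2-K1 by 0.07, and Klra2 had too few UMIs.

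Of 12 transcription factors Eomes (0.87) and Zeb2 were higher and Ikzf2 (-1.55), which encodes Helios, lower, each in 8 of 8 mice. Of 17 maturation and ILC1 genes, Itgam, Gzma, Prf1 (0.77, 8 of 8) and Gzmb (0.42, 7 of 8) were higher. Il7r, Xcl1 (-0.84, 7 of 8), which encodes a chemokine, and Tnfsf10 (-1.45, 7 of 8, exact sign-flip p = 0.391), which encodes TRAIL, were lower. So were Cd7 (-0.51, 6 of 8) and Gzmc (-0.33, 6 of 8), for which the exact sign-flip p was 0.0703 and 0.164, and Gzmc lost its call with the robust prior (edgeR adjusted p = 0.857). Tnfsf10 and Cd7 lost theirs with DESeq2 (adjusted p = 0.106 and 0.643), and Cd7 passed in 2 of 8 edgeR fits with a mouse left out.

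Markers of other cells in the comparison were as follows. The 7 macrophage markers summed to 103 to 260 CPM in positive and 68.4 to 200 in negative cells, and the 4 T-cell markers to 16.5 to 54.2 and 0 to 91.7. Cd74, of antigen-presenting cells, had 142 ± 61.6 and 394 ± 475 CPM. Cd79a, Cd209a and Ccr9, which mark B cells, type 2 dendritic cells and pDCs, were at 0 in both. The B-cell marker Ms4a1 had 3 UMIs and the pDC marker Siglech 2. The dendritic cell markers Xcr1 and Flt3 had 2 and 1, and all of these lay in positive cells. The part of other cells in the differences was not tested.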

How the data were processed

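Live CD45+ cells of 4 WT and 4 CaMKK2 KO mice were profiled with the 10x 3′ v3.1 chemistry. Per the submitters' notes and the study's methods, the authors used bcl2fastq 2.20 and Cell Ranger 4.0.0 with STAR 2.7.5c on mm10, and deposited whole counts of UMIs per gene and barcode, not normalized and not passed through their later cell filters. Barcodes were assigned to mice with HTODemux (Seurat 5.3.0, quantile 0.99). Cells under 200 genes, outliers by 3 median absolute deviations (scuttle 1.12.0) and Scrublet doublets (scanpy 1.11.5) were removed. Mitochondrial outliers were taken from genes with the prefix mt-. Cells were gated on UMIs of marker genes without the members, and clustered on 3000 variable genes, 30 principal components and resolution 1, also without the members.

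UMIs were summed per mouse and class. The minimum for a test was 50 UMIs of a gene over the class. Tests were edgeR 4.0.16 quasi-likelihood fits scaled to total counts, adjusted by Benjamini-Hochberg over all genes tested at a threshold of 0.05. The fits were tested on simulated data. Single values were compared with two-sided exact permutation tests. Alternatives were TMM, DESeq2 1.42.0, other filters, gates and thinning depths, a robust prior and each mouse left out. Other software was R 4.3.3, Python 3.11.15, numpy 2.4.6, pandas 2.3.3, scipy 1.17.1 and biopython 1.88.

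The members, the gate markers and the list of 59 partner and NK genes were chosen with earlier results of these data known. The genes named are the members, the listed genes past the threshold (up to 10 per comparison) with Tyrobp, Ptpn6, Klra2, H2-D1 and H2-K1 whatever their value, the 8 highest and 8 lowest genes of the comparison of positive with negative cells with the same sign in at least 7 mice, and the 3 genes most like each member. B2m, Klrb1a, Zap70, Fyn, Sh2d1a, Id2, Tox, Gzmc between genotypes, the listed genes beyond the first 10 called between positive and negative cells and the leading genes of macrophage clusters were named after their values were seen. The robust prior, the sign flips of single genes and the splits of T cells and macrophages were added after the data were seen.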

Additional observations from a re-analysis of the deposited data

Results flagged for a closer look

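In 34 groups of 4 mice (a gene in a class and genotype, or a summed value), the highest or lowest mouse was checked against the other 3 by Dixon's test, which marks about 1 in 20 groups by chance. Of these, 3 stood out. In NK-gated cells Klra1 was at 65.8 CPM in CaMKK2 KO mouse 3, against 50.4 to 51.8 in the other 3 CaMKK2 KO mice. In NK-gated cells Klra3 was at 112 CPM in WT mouse 1, against 65.8 to 73.7 in the other WT mice. In macrophage-gated cells Klra17 was at 5.85 CPM in WT mouse 1, where the other 3 had 26.5 to 29.3. Their causes were not tested.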

How the results depend on the processing

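The counts of called genes moved most. Against 241 in NK-gated cells, 595 were called with no filter and 446 with outlying cells and doublets kept, and 109 to 778 with a mouse left out, the highest without CaMKK2 KO mouse 3. Against 151 in CD8 T-gated cells, 82 were called at a minimum of 200 UMIs, 480 with no filter and 70 to 151 with a mouse left out (70 without WT mouse 4). Against 315 in macrophages, DESeq2 called 713, and 148 (without CaMKK2 KO mouse 2) to 478 (without CaMKK2 KO mouse 3) were called with a mouse left out. Against 87 between positive and negative cells, 53 were called at a minimum of 200 UMIs (52 of them among the 87), 39 with DESeq2 (36 among the 87), whose median over all genes was shifted by -0.19, and 22 with no replicate block (22 among the 87). No paired analysis was possible between genotypes because the hashtag numbers do not tie a WT mouse to a CaMKK2 KO mouse. Leaving Klra17 out of the definition of positive cells changed none, since no thinned NK-gated cell held it.

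Directions turned for small differences. The number of members per NK-gated cell, KO minus WT, was -0.0427 at 5000 UMIs, -0.126 without thinning and -0.00565 to 0.126 with a mouse left out. In NK-gated cells Klra4 was -0.07 with TMM, -0.06 with DESeq2, -0.05 by clusters and -0.17 to 0.18 with a mouse left out, Klra5 was -0.01 with outlying cells kept and -0.00 to 0.61 with a mouse left out, Klra8 -0.01 to 0.42 and Ptpn6 -0.25 to 0.05. In CD8 T-gated cells Klra7 was -0.05 with DESeq2 and -0.49 to 2.15 with a mouse left out, Klra3 -0.20 to 1.74, Ptpn6 -0.08 to 0.34, and Tyrobp 0.31 with outlying cells kept, 0.11 by clusters and -0.43 to 0.00 with a mouse left out. In macrophages Tyrobp was 0.08 with TMM and DESeq2 and 0.01 with outlying cells kept, and with a mouse left out Klra17 ran from -0.59 to 0.12 and Ptpn6 from -0.04 to 0.24. Between positive and negative cells H2-D1 was 0.06 at 5000 UMIs and with TMM, 0.00 with a stricter gate and -0.04 to 0.04 with a mouse left out, and Gzmc was 0.06 at 5000 UMIs. The causes were not tested. Some genes passed under an alternative alone. In NK-gated cells Klra7 did by clusters (edgeR adjusted p = 0.0396), with a robust prior (0.0494), with outlying cells and doublets kept (0.0152), with no filter (0.00276) and without CaMKK2 KO mouse 3 (0.0343) or 4 (0.0465). Klra9 did with no filter (6.09e-05) and without CaMKK2 KO mouse 3 (0.0144). H2-D1 and H2-K1 did with outlying cells kept (0.0278 and 0.0443) and without CaMKK2 KO mouse 3 (0.00599 and 0.0226). H2-D1 in CD8 T-gated cells did with no filter (0.0248), and Klra2 in macrophages with no filter (0.0314) and without WT mouse 1 (0.0469). With 4 mice per genotype, depth and cell numbers limit Klra6 and Klra17 in lymphocytes and all members in the classes under 100 cells.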

Other observations

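NK-gated cells fell mainly into a pair of clusters that had been made without the members, and the members differed between them. Cluster 3 held 989 NK-gated cells (404 WT and 585 CaMKK2 KO) with a median of 5584 UMIs, and cluster 19 held 376 (159 and 217) with a median of 18787 UMIs. The summed level was 1741 CPM in cluster 3 and 1034 in cluster 19. Klra4 (455 against 178 CPM), Klra8 (379 against 180) and Klra9 (326 against 108) were lower in cluster 19, Klra7 stood at 358 and 374 and Klra1 at 74.6 and 70.2. Klra5 was higher there, at 34.6 against 8.1 CPM, as was the proliferation gene Mki67, at 43.9 against 6.85 CPM. These values pool mice and were not tested, and the clusters differ in depth.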
